A study of Danio rerio with 24 samples.

Results

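Zebrafish embryos exposed to tetrabromobisphenol A (TBBPA), a brominated flame retardant, were followed from 3.5 to 4.5 hours post fertilization (hpf), and the question was which transcripts still rise or fall in exposed embryos across that hour. The comparison uses 8 of the 24 libraries of the study, 4 from exposed embryos at 3.5 hpf and 4 from exposed embryos at 4.5 hpf, chosen by the treatment and time in the labels. Each library was made from total RNA of whole wild-type embryos. The exposed embryos were held in 40 µM TBBPA with 0.1% dimethyl sulfoxide (DMSO) from 0.75 hpf until collection. The 8 vehicle libraries of the same times, 4 at each, came from embryos in 0.1% DMSO alone, so every group carries the solvent. Vehicle and exposed libraries of 2 hpf, 4 of each, give levels before the window.

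An early zebrafish embryo starts on RNA and protein that the mother placed in the egg. In the maternal-to-zygotic transition the embryo's own genome is switched on, first at a small set of genes and then broadly, and many maternal transcripts are destroyed, partly by products of that new transcription. In zebrafish the maternal factors Nanog, Pou5f3 and Sox19b open the first zygotic genes, and histone acetylation accompanies their activation. The series title names zygotic transcription and histone acetylation as what the exposure was studied for.

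Levels are FPKM as the authors deposited them, counts divided by gene length and by a factor for each library. That factor is not the plain total of reads assigned to genes, since scaling to total reads moved the vehicle counts given below. Levels are given for single libraries or as mean ± standard deviation (SD) with n = 4 per group. Differences are on the log2(FPKM+1) scale with their standard error (SE). On that scale a change at a weakly expressed gene is smaller than its ratio of means. A gene "rose" or "fell" where limma's 2-sided test gave a Benjamini-Hochberg adjusted p under 0.05 over all genes tested. The labels do not say whether the 4 libraries of a group came from separate clutches or exposures, so a p-value here reflects the spread among libraries, which may be technical. Reads assigned to genes, recovered from the values, were 13.5 to 17.3 M per library at 3.5 hpf and 14.3 to 17.7 M at 4.5 hpf under TBBPA, and 10.6 to 20.02 M over all 24 libraries. Of 35 markers of cell types of later stages 1 passed the expression filter (1 FPKM in at least 4 libraries), with the list summing to 5.99 to 7.17 FPKM at 3.5 hpf and 5.59 to 6.54 FPKM at 4.5 hpf. In a principal component analysis of the 16 libraries of 3.5 and 4.5 hpf, the first component held 76.7% of the variance. On it the exposed libraries lay at -37.3 to -28.9 at 3.5 hpf and at -16.1 to -6.42 at 4.5 hpf, next to the vehicle libraries of 3.5 hpf (-17.8 to -14.9) and away from those of 4.5 hpf (56.3 to 69.7). On the second component, 5.64% of the variance, exposed libraries of 4.5 hpf (10.2 to 13.8) and vehicle libraries of 3.5 hpf (-16.4 to -13.4) lay apart.

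Under TBBPA, 1753 of 11877 tested genes changed over the hour (14.8%), of which 731 rose (6.15%) and 1022 fell (8.6%). At an unadjusted p under 0.05 the count was 3513 (29.6%). The 4 libraries of 4.5 hpf all lay above those of 3.5 hpf for 1051 genes (8.85%) and all below for 1475 (12.4%), 2526 in all (21.3%). The rises were the larger changes: 140 genes rose at least 2-fold (1.18%) and 3 fell at least 2-fold (0.0253%). In vehicle embryos over the same hour 8662 of 12354 tested genes changed (70.1%; 72.4% at an unadjusted p under 0.05), with 4427 rising (35.8%), 4235 falling (34.3%), 983 rising at least 2-fold (7.96%) and 629 falling at least 2-fold (5.09%). The vehicle split depends on scaling, since the deposited FPKM sum to more in vehicle libraries of 4.5 hpf than in the others. The median vehicle change of all genes was 0.02 as deposited and -0.13 with each library scaled to the same sum (TPM), which gave 3068 rising and 5439 falling genes, and scaling to total reads gave 3308 and 5169. Under TBBPA the same scalings gave 718 and 715 rising and 1044 and 1025 falling genes. The count under TBBPA was lower with any 1 library left out. Without replicate 1, 2, 3 or 4 of 3.5 hpf it was 1152, 1131, 1547 and 1530. Without replicate 1, 2, 3 or 4 of 4.5 hpf it was 1699, 1556, 1118 and 1107. Such fits hold fewer libraries while the filter stays at 4, so a lower count alone does not single out a library. Every gene called both with and without each of these libraries kept its direction.

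The exposed embryos mostly moved in the vehicle direction, by less. Among the 11647 genes tested in both treatments, 676 rose in both, which is 93.4% of the genes that rose under TBBPA and 17.5% of those that rose in vehicle. Likewise 955 fell in both, 93.7% of the genes that fell under TBBPA and 22.6% of those that fell in vehicle. The vehicle and TBBPA changes share no library. Across these genes the log2 changes under TBBPA and in vehicle had Pearson's r = 0.767, a description across genes, which are not independent replicates. The difference between the 2 changes (the interaction of treatment and time over 16 libraries) passed for 6753 of 12780 genes (52.8%), 3356 with a higher change under TBBPA (26.3%) and 3397 with a lower one (26.6%). The difference reached 2-fold for 251 higher (1.96%) and 632 lower genes (4.95%), and 57.5% passed at an unadjusted p under 0.05. With TPM scaling the counts were 4659 higher and 2013 lower, and with scaling to total reads 4346 and 2306. Of the 676 genes that rose in both, 532 rose less under TBBPA, 6 rose more and 138 did not pass the test of the difference. Of the 955 that fell in both, 837 fell less under TBBPA, 1 fell more and 117 did not pass.

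**Figure D1:**
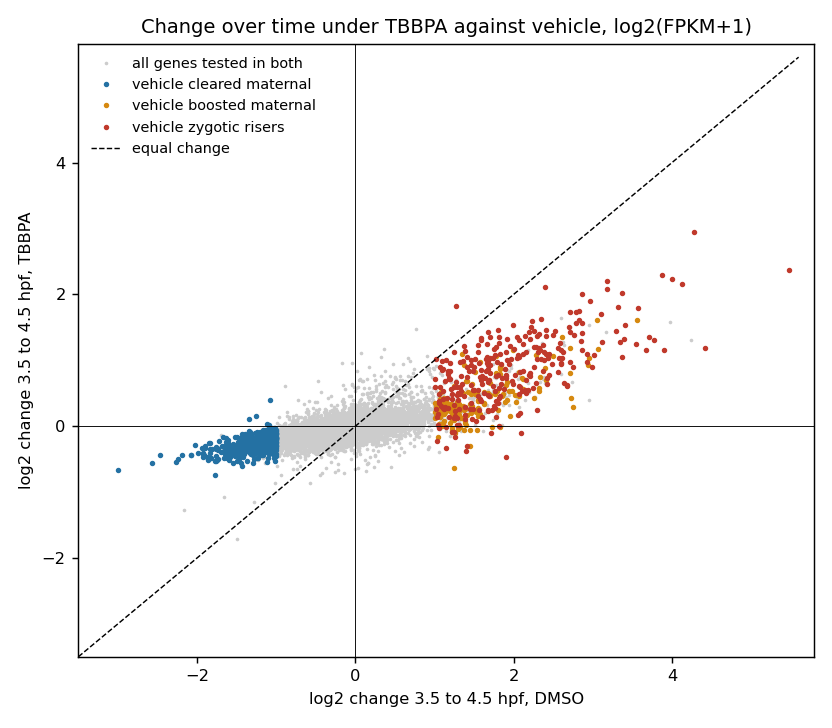
Log2 change from 3.5 to 4.5 hpf under TBBPA (vertical axis) against the change in vehicle (horizontal axis) on log2(FPKM+1), 1 point per gene tested in both (11647 genes), with 3 classes defined from vehicle libraries in color. Nearly all points of the cleared maternal class (left) and of the riser classes (right) lie between the horizontal axis and the dashed line of equal change, with medians under TBBPA of -0.28, 0.32 and 0.83.

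To ask what the exposed embryos did with the vehicle program, genes were grouped from vehicle libraries only. Zygotic risers had a mean under 0.5 FPKM at 2 hpf in vehicle and rose at least 2-fold there, boosted maternal genes had at least 2 FPKM at 2 hpf and rose at least 2-fold, and cleared maternal genes had at least 2 FPKM at 2 hpf and fell at least 2-fold. Stable maternal genes had at least 2 FPKM at 2 hpf and did not pass the vehicle test. Vehicle values chose the classes and are given as a description. The levels of 2 hpf come from a table that the authors scaled separately, and they are used here for the grouping without a test. Of the 646 zygotic risers, 292 reached the filter in exposed embryos, and 214 of these rose and 1 fell. A gene that reached the filter only through its level at 4.5 hpf had to differ, so counts over the tested members, here and in the lists that follow, describe those members and not the whole class. The median change of these 292 under TBBPA was 0.83, or 1.19 with 0.1 added to FPKM in place of 1 and 1.22 by limma voom. Over all 646 members the median was 1.602 in vehicle, and 0.46 under TBBPA with the filter over 16 libraries. For the 292, a gene's change under TBBPA was at the median 0.434 of its change in vehicle, on log2(FPKM+1). That ratio was taken on this scale only, and choosing members for a vehicle rise favors a low ratio. Of the 170 tested boosted maternal genes 102 rose and 0 fell (0 also by limma voom and at an unadjusted p under 0.05, 1 without replicate 2 of 4.5 hpf), with a median of 0.32 against 1.37 in vehicle. Of the 609 cleared maternal genes 405 fell and 0 rose (0 also by limma voom and at an unadjusted p under 0.05), with a median of -0.28 against -1.195, and 604 of them had the same sign as in vehicle. Of 2561 tested stable maternal genes 27 rose and 40 fell, or 14 and 16 without replicate 2 and 17 and 17 without replicate 1 of 3.5 hpf. The falls numbered 23 and 21 without replicates 3 and 4 of 4.5 hpf. Over all genes tested under TBBPA 6.15% rose, 8.6% fell and the median was -0.01.

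The other 354 zygotic risers did not reach the filter in exposed embryos, and they were chosen for their rise in vehicle, so a low exposed level beside a higher vehicle level follows from the choice and is given as a description. Their median level was 0.224 FPKM at 3.5 hpf and 0.551 FPKM at 4.5 hpf under TBBPA, against 3.09 FPKM in vehicle at 4.5 hpf. Their mean was higher at 4.5 than at 3.5 hpf for 334 of them, and 64 reached a mean of 1 FPKM. With the filter set over all 16 libraries, a choice made after the data were seen, all 646 were tested and 325 rose, with a median of 0.46.

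Over all members, with no filter, the share of summed FPKM that each class took was compared between libraries. Zygotic risers took 0.314, 0.358, 0.453 and 0.399% in the exposed libraries of 3.5 hpf and 0.758, 0.797, 0.956 and 0.995% in those of 4.5 hpf, so the groups did not overlap. Their mean share was 0.0170% at 2 hpf, 0.381 ± 0.0593% at 3.5 hpf and 0.877 ± 0.116% at 4.5 hpf under TBBPA. In vehicle it was 0.551 ± 0.0224% at 3.5 hpf and 2.45 ± 0.182% at 4.5 hpf, so exposed embryos of 4.5 hpf stood above vehicle embryos of 3.5 hpf and below those of 4.5 hpf. The number of risers at 1 FPKM or more was 174, 195, 221 and 203 in the exposed libraries of 3.5 hpf and 324, 319, 369 and 388 in those of 4.5 hpf.

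Cleared maternal genes took 7.7, 7.49, 7.04 and 7.3% at 3.5 hpf and 6.36, 6.27, 5.7 and 5.63% at 4.5 hpf under TBBPA. The mean fell by 1.39 percentage points, from 7.38 ± 0.281% to 5.99 ± 0.378%, against 6.36 ± 0.0791% and 2.24 ± 0.226% in vehicle. Boosted maternal genes went from 1.41 ± 0.0613% to 1.88 ± 0.116% under TBBPA, and from 1.67 ± 0.0238% to 4.2 ± 0.256% in vehicle. Each of these 3 shares and the number of risers gave an exact permutation p = 0.0286 (2-sided, 4 against 4 libraries, the smallest p this design allows; 0.0457 adjusted over 8 measures), with every library of 4.5 hpf on the same side of every library of 3.5 hpf. Stable maternal genes took 14.08 ± 0.0736% and 14.0005 ± 0.0716% under TBBPA (exact permutation p = 0.2). In vehicle their share went from 14.23 ± 0.0692% to 12.79 ± 0.144%, a larger move than under TBBPA. The class was chosen on deposited FPKM, and a share divides by summed FPKM, which was higher in vehicle at 4.5 hpf. Mitochondrially encoded genes took 4.7 ± 0.213% and 4.77 ± 0.316% under TBBPA (exact permutation p = 0.743). Of the 13, 0 passed limma's test under TBBPA (0 also by limma voom, 2 at an unadjusted p under 0.05). In vehicle 8 rose and 0 fell as deposited, where 35.8% of all genes rose and 34.3% fell. With other scalings 5 to 7 of the 13 rose and 0 to 3 fell in vehicle. In whole embryos, fewer cells of a type and less RNA per cell cannot be told apart.

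**Figure D2:**
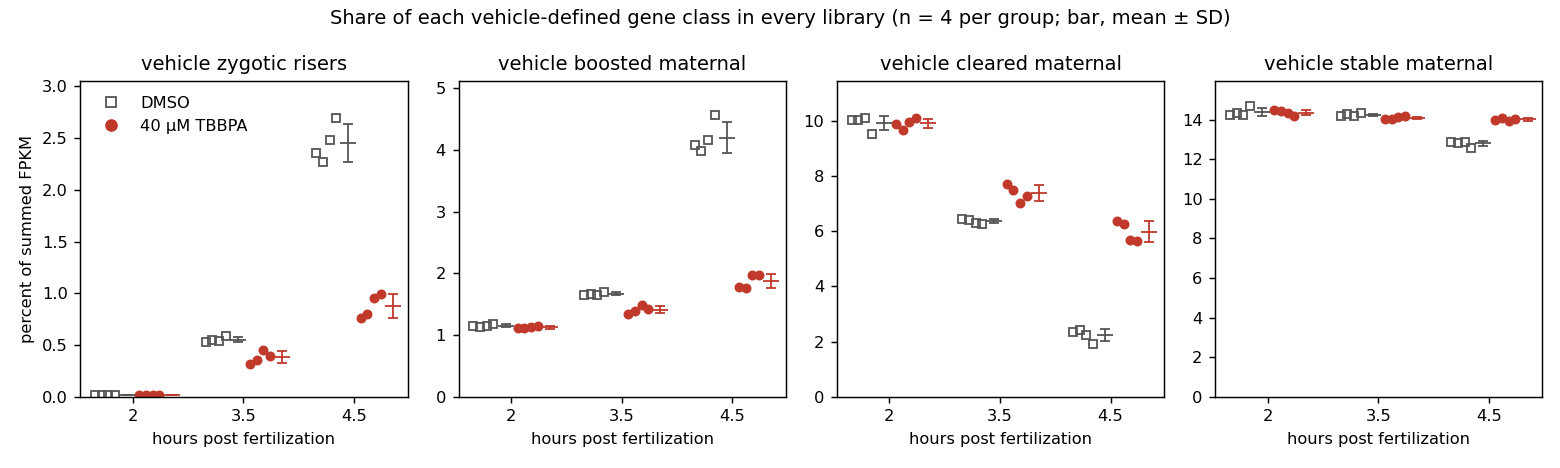
Percent of summed FPKM taken by 4 vehicle-defined gene classes in every library at 2, 3.5 and 4.5 hpf (squares, DMSO; circles, 40 µM TBBPA; bar, mean ± SD, n = 4). From 3.5 to 4.5 hpf the risers' share went from 0.381% to 0.877% under TBBPA and from 0.551% to 2.45% in vehicle, and the cleared class from 7.38% to 5.99% and from 6.36% to 2.24%.

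The largest rise under TBBPA among the genes of the naming rule was that of cdk5r1a, which encodes an activator of the kinase Cdk5. It stood at 0.342, 0.505, 1.12 and 0.406 FPKM in the 4 exposed libraries of 3.5 hpf and at 6.37, 9.86, 14 and 16.5 FPKM in those of 4.5 hpf, a log2 difference of 2.94 ± 0.25 (SE, limma adjusted p = 0.000474). The 4 libraries of 4.5 hpf all lay above those of 3.5 hpf, with replicates 3 and 4 highest. In vehicle it went from 0.769 ± 0.282 to 33.3 ± 4.96 FPKM, and the rise under TBBPA was lower by 1.34 on the log2 scale (limma adjusted p = 0.00163). The tables place cdk5r1a (ENSDARG00000037916) on chromosome 3.

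Second was stm, the zebrafish starmaker gene, whose product shapes the mineral of the ear stones. The stm level went from 0.424, 0.837, 1.2 and 0.846 FPKM to 5.67, 6.75, 10.2 and 11.8 FPKM (log2 difference 2.36 ± 0.21, limma adjusted p = 0.000474), with no overlap. Its vehicle rise, from 1.58 ± 0.269 to 115 ± 22.9 FPKM, exceeded it on the log2 scale (difference -3.12, limma adjusted p = 1.25e-07), the widest gap of the named genes whose rise was smaller under TBBPA. The mesoderm T-box factor tbx16 went from 3.49, 5.32, 8.67 and 7.32 FPKM to 25.4, 25.6, 36.6 and 40.7 FPKM (2.23 ± 0.23, limma adjusted p = 0.000617), and in vehicle from 9.7 ± 0.98 to 171 ± 24.9 FPKM. The sulfotransferase sult6b1 went from 1.47, 4.2, 5.07 and 4.09 FPKM to 14.8, 16.7, 24.2 and 24 FPKM (2.196 ± 0.27, limma adjusted p = 0.00099). In both genes all exposed libraries of 4.5 hpf exceeded all of 3.5 hpf, and replicate 1 of 3.5 hpf was the lowest.

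The 15 largest rises by the naming rule (protein-coding, at least 5 FPKM in 1 group, no overlap) ran from 2.94 down to 1.62. After the 4 genes above came mxtx1, a homeobox gene of the yolk syncytial layer (1.8 ± 0.826 to 10.8 ± 3.07 FPKM), the ubiquitin ligase adaptor asb11 (14.5 ± 6.02 to 53.1 ± 10.2 FPKM) and ccnd1, which encodes cyclin D1 (6.53 ± 2.19 to 25.1 ± 5.71 FPKM). The forkhead gene foxa3, e2f7 (a repressor of the E2F family), the sestrin sesn3, the hyaluronan synthase has2 and the apelin receptor aplnra followed, with means of 1.1, 1.97, 3.51, 3.46 and 3.5 FPKM at 3.5 hpf and 6.32, 9.2, 14.5, 13.4 and 13.8 FPKM at 4.5 hpf. The list closed with mplkip (22.9 to 72.6 FPKM), phlda3 (9.61 to 32.3 FPKM) and the adenylate kinase ak3 (1.83 to 7.91 FPKM). All but mplkip and ak3 are vehicle zygotic risers, and each of the 15 also rose in vehicle. Each of the 15 kept its call under every alternative tried, leaving out any 1 library included.

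Falls were shallower. The largest by the rule was dnajc5ga, a gene of the J-domain cysteine string protein family, which stood at 88.4, 85.4, 78.8 and 77.2 FPKM in the exposed libraries of 3.5 hpf and at 54.3, 57.2, 50.1 and 45 FPKM in those of 4.5 hpf (log2 difference -0.67 ± 0.072, limma adjusted p = 0.000635). The groups did not overlap. In vehicle it fell from 67 ± 4.3 to 7.52 ± 0.244 FPKM, so the change under TBBPA was higher by 2.33 ± 0.093 (limma adjusted p = 1.93e-10), the largest such difference among the named genes.

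The maternal activator gene sox19b fell from 492, 497, 456 and 464 FPKM to 357, 348, 303 and 293 FPKM under TBBPA (log2 difference -0.56 ± 0.062, limma adjusted p = 0.000767). In vehicle it fell from 445 ± 7.46 to 74.9 ± 10.9 FPKM, and the changes differed by 2.01 ± 0.12 (limma adjusted p = 5.34e-09). Between these by size stood hsd17b12b, a ketoacyl-CoA reductase of fatty acid elongation (36.5 ± 4.78 to 23.6 ± 2.17 FPKM), prkab1a, a subunit of the energy sensor AMPK (7.51 ± 0.852 to 4.77 ± 0.831 FPKM), and irs4a, an insulin receptor substrate (8.78 ± 1.54 to 5.58 ± 0.256 FPKM). The next were papd7, CCDC69, txnrd3, slc30a4, snx1a, tpi1a, rnaseh1, trim36, ptpn23b and pora, with log2 differences from -0.54 to -0.50. Of these, papd7 encodes a poly(A) polymerase, txnrd3 a thioredoxin reductase and trim36 a maternal ubiquitin ligase of axis formation. All 15 also fell in vehicle, and each kept its call under every alternative tried.

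**Figure D3:**
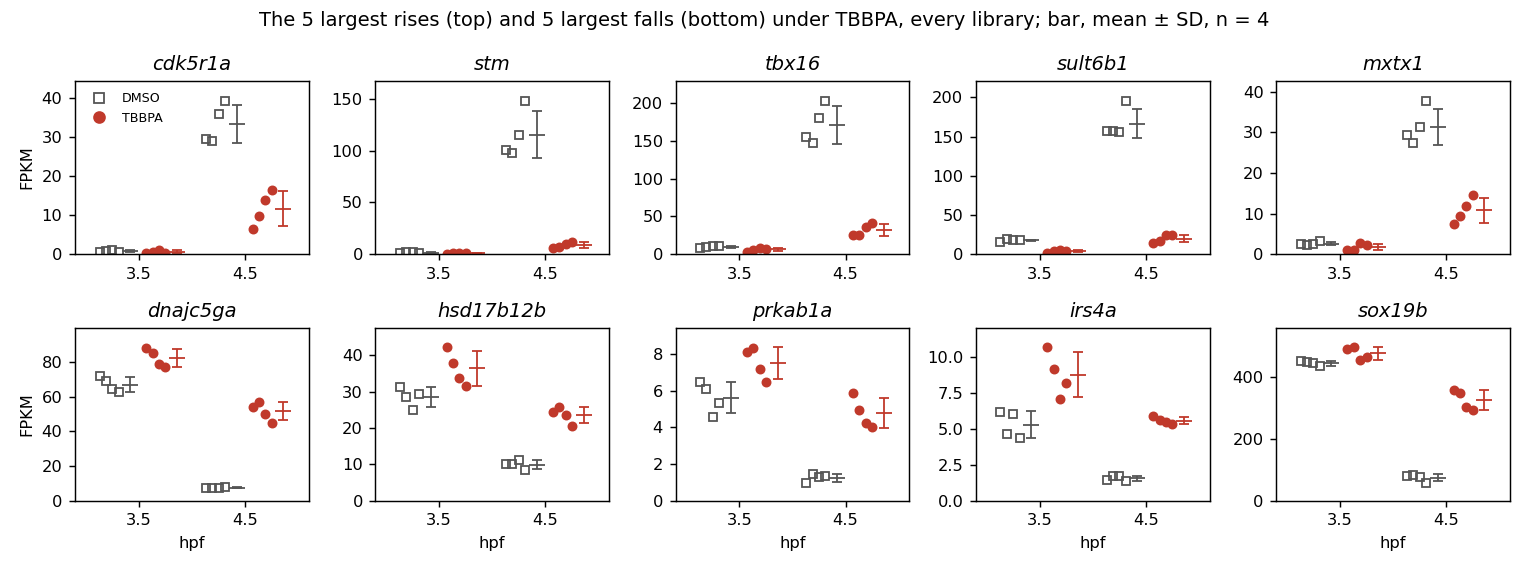
FPKM in every library at 3.5 and 4.5 hpf for the 5 largest rises (top) and 5 largest falls (bottom) under TBBPA (squares, DMSO; circles, TBBPA; bar, mean ± SD, n = 4; each vertical axis starts at 0 and has its own range). The exposed groups do not overlap for any of the 10 genes, and vehicle embryos ended higher in the top row, such as 115 against 8.62 FPKM for stm, and lower in the bottom row, such as 7.52 against 51.7 FPKM for dnajc5ga.

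The 3 falls of at least 2-fold were all mir-430 genes, the zygotic microRNA family that marks maternal transcripts for decay. They were dre-mir-430a-2 (-1.71), dre-mir-430c-1 (-1.46) and 1 of the 2 entries of dre-mir-430b-10 (-1.27). In vehicle dre-mir-430a-2 (-1.49) and the same dre-mir-430b-10 entry (-2.16) also fell, and dre-mir-430c-1 was below the filter. The difference of the changes passed for none of the 3 (limma adjusted p = 0.804, 0.26 and 0.188 in the order above). Exposed libraries of the 2 times overlapped for dre-mir-430a-2 and dre-mir-430b-10, and not for dre-mir-430c-1. Of 55 mir-430 entries 7 were tested, and no tested entry had over 13 reads in any exposed library. The copies are nearly identical, so how reads were divided among them is uncertain.

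Among the genes of the first zygotic wave, 24 of 33 tested rose under TBBPA (72.7%, against 6.15% of all genes), 1 fell and 15 rose at least 2-fold. The median change was 0.92 under TBBPA, where it was -0.01 over all genes, and 1.65 in vehicle. The apelin receptor gene aplnrb went from 157, 152, 204 and 187 FPKM to 330.4, 364, 419.9 and 407 FPKM (1.12 ± 0.10, limma adjusted p = 0.000474). Its vehicle level was lower, from 39.5 ± 2.36 to 95.5 ± 9.13 FPKM, and the difference of the changes was -0.13 (95% confidence interval -0.41 to 0.15, limma adjusted p = 0.435). The Nodal ligand ndr2 rose by 1.53 (0.675 to 3.91 FPKM) and the interferon-stimulated gene isg15 by 1.45 (25.7 to 72.1 FPKM), and for both the difference from vehicle did not pass after adjustment (limma adjusted p = 0.0531 and 0.304, with unadjusted 95% intervals of -0.86 to -0.06 and -0.93 to 0.23). The 1 fall (2 without replicate 1 of 3.5 hpf) was irx7, an Iroquois factor, from 122, 128, 133 and 127 FPKM to 118, 108, 107 and 104 FPKM. It fell further in vehicle, from 102 ± 5.03 to 48.2 ± 3.62 FPKM. Genes ndr2 and isg15 were named after their values were seen.

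Signals of the BMP family pattern the ventral side of the embryo, and organizer genes the dorsal side. Under TBBPA 6.15% of all genes rose and 8.6% fell. Of 17 tested ventral and BMP pathway genes 11 rose (64.7%) and 0 fell. Of 10 tested dorsal organizer genes 5 rose (50%) and 0 fell. For both lists limma voom gave 0 falls and an unadjusted p under 0.05 gave 1, and 1 ventral gene fell without replicate 1 of 3.5 hpf. The BMP ligand gene bmp7a went from 1.13, 1.38, 2.12 and 1.26 FPKM to 2.93, 4.69, 6.61 and 7.92 FPKM (1.35 ± 0.23, limma adjusted p = 0.00417), while in vehicle it went from 2.3 ± 0.263 to 42.6 ± 6.97 FPKM. The BMP antagonist chrd went from 0.618 ± 0.168 to 3.14 ± 1.24 FPKM, against 2.68 ± 0.181 to 49.95 ± 8.75 FPKM in vehicle. The ventral repressor vox stood at 19.2, 19.4, 18.7 and 18.1 FPKM and then at 18.8, 17.2, 16.1 and 17.6 FPKM, overlapping groups (-0.11 ± 0.051, limma adjusted p = 0.188). In vehicle vox went from 17.9 ± 0.572 to 80.8 ± 14.7 FPKM, and the changes differed by -2.205 (limma adjusted p = 3.43e-09). Its relatives ved and vent rose under TBBPA by 1.26 and 1.15. The chemokine receptor cxcr4a, counted with the dorsal list, was at 39.3 ± 6.83 and 40.01 ± 4.2 FPKM (limma adjusted p = 0.877), against 78.7 ± 2.21 and 153 ± 7.42 FPKM in vehicle. The genes ved and vent were named after their values were seen.

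Of 31 mesoderm and Nodal genes 18 were tested. Of these 12 rose (66.7%, against 6.15% of all genes) and 1 fell (8.6% of all genes fell). The fall was lft1, which encodes the Nodal antagonist Lefty1, from 3.12, 3.43, 2.94 and 2.72 FPKM to 2.63, 1.42, 2.02 and 1.79 FPKM (-0.46 ± 0.12, limma adjusted p = 0.0301). In vehicle lft1 rose from 3.8 ± 0.595 to 16.8 ± 1.86 FPKM, and it is the 1 vehicle zygotic riser that fell under TBBPA. Its call under TBBPA was lost with no filter and without any of 6 single libraries (the highest adjusted p was 0.0864), and the difference from vehicle was kept. Of the mesoderm list 2 genes fell without replicate 4 of 3.5 hpf. Of 11 endoderm genes 5 were tested and 3 rose. From this list, gata5 went from 0.295 ± 0.166 to 2.18 ± 0.634 FPKM against 0.399 ± 0.196 to 13.5 ± 4.03 FPKM in vehicle.

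Under TBBPA 6.15% of all genes rose and 8.6% fell. Neurectoderm genes rose in 8 of 17 tested (47.1%) and fell in 2, otx1 and irx7. Without replicate 1, 3 or 4 of 4.5 hpf the count of rises was 5. The SoxC factor gene sox11a went from 10.1 ± 2.52 to 23.5 ± 3.56 FPKM. The forebrain factor otx1, which is also maternal, fell from 119.6 ± 5.2 to 95.9 ± 4.95 FPKM. Enveloping layer genes were largely below the filter: 6 of 24 were tested and 4 rose. In vehicle 14 of 15 tested rose, where 35.8% of all genes did. With any 1 vehicle library of 4.5 hpf left out, 8 passed the filter in vehicle and 7 rose. The keratin gene krt8 went from 2.23, 2.32, 1.92 and 2.76 FPKM to 4.89, 6.24, 9.05 and 9.54 FPKM, against 1.92 ± 0.201 to 55.8 ± 17.2 FPKM in vehicle, and the changes differed by -2.93 (limma adjusted p = 2.26e-07). The tight junction gene cldne went from 1.48 ± 0.527 to 5.03 ± 1.47 FPKM against 11.7 ± 1.66 to 109 ± 12.8 FPKM in vehicle. Of 10 yolk syncytial layer genes 2 were tested under TBBPA and both rose, mxtx1 and mxtx2, the second from 4.72 ± 1.25 to 10.6 ± 0.292 FPKM. In vehicle 6 of 6 tested rose, or 2 to 6 with 1 library left out. The change was lower under TBBPA for all 6 tested for the difference (median -1.36). With the filter over 16 libraries 9 enveloping layer and 4 yolk syncytial layer genes rose.

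The zinc finger genes of chromosome 4, an array of many similar copies, are transcribed early in zebrafish. Under TBBPA 6.15% of all genes rose (1.18% at least 2-fold) and 8.6% fell. Of 175 zinc finger genes on the list 57 were tested under TBBPA and 34 rose (59.6%), 10 of them at least 2-fold. None fell (0 by limma voom, 1 at an unadjusted p under 0.05). The rises numbered 22 without replicate 3 of 4.5 hpf. In vehicle 90 of 97 tested rose and 3 fell, where 35.8% of all genes rose and 34.3% fell. The similarity of the copies makes the division of reads among them uncertain. The 2 largest were znf1043, from 1.94 ± 0.299 to 7.01 ± 1.59 FPKM, and znf1058, from 1.19 ± 0.278 to 4.21 ± 0.403 FPKM. For znf1043 the difference from the vehicle change was -0.25 (95% interval -0.74 to 0.23, limma adjusted p = 0.38).

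**Figure D4:**
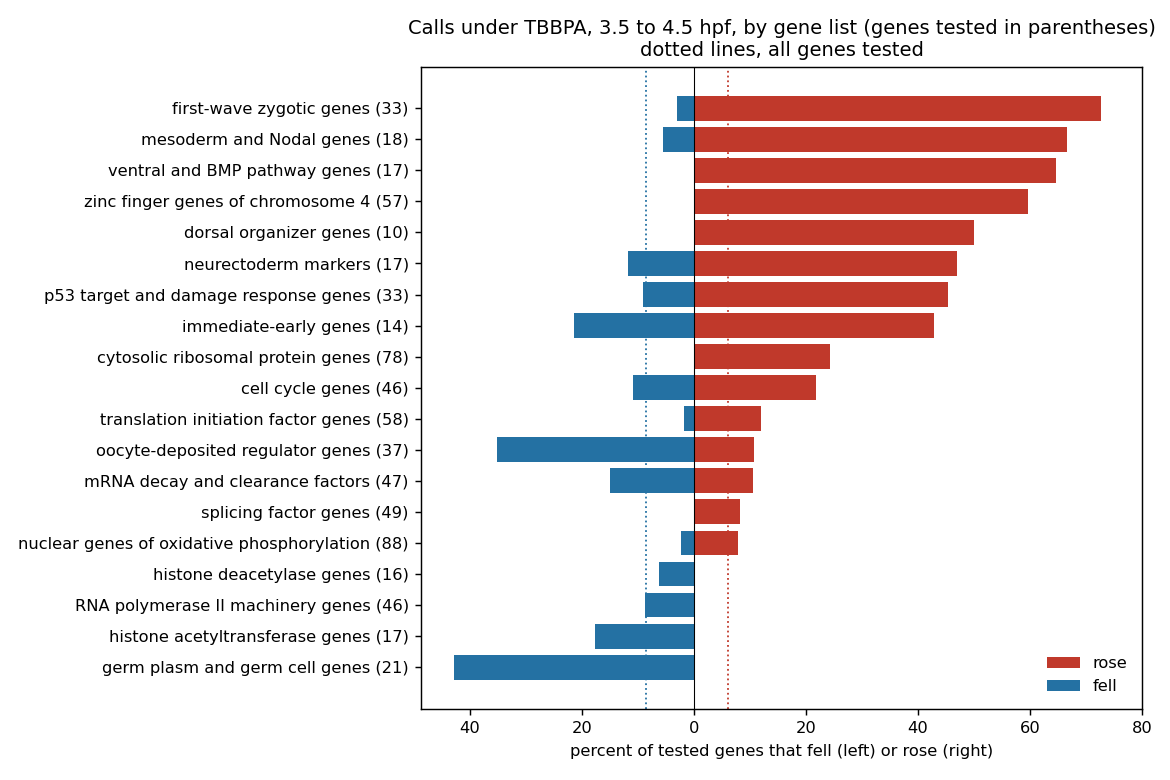
Percent of tested genes that fell (left, blue) or rose (right, red) under TBBPA from 3.5 to 4.5 hpf in 19 gene lists, with the number tested in parentheses and dotted lines for all genes tested (8.6% and 6.15%). The highest bars to the right are the first-wave zygotic genes (72.7%), the mesoderm and Nodal genes (66.7%) and the ventral and BMP pathway genes (64.7%), and the longest to the left are the germ plasm and germ cell genes (42.9%).

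The transcription factor p53 raises a set of arrest and death genes after DNA damage and other stress in vertebrates. Of 33 tested p53 target and damage response genes 15 rose (45.5%) and 3 fell (9.09%), ddit4, mdm4 and bcl2l1, against 18 and 12 of 33 in vehicle. Over all genes 35.8% rose and 34.3% fell in vehicle, and 6.15% and 8.6% under TBBPA. The sestrin sesn3 went from 2.8, 2.89, 4.54 and 3.8 FPKM to 8.02, 13, 18.3 and 18.7 FPKM (1.73 ± 0.23, limma adjusted p = 0.00137), and phlda3, a brake on Akt signaling, from 7.63, 8.01, 11.4 and 11.4 FPKM to 21.5, 27.2, 40.004 and 40.4 FPKM (1.62 ± 0.20, limma adjusted p = 0.00108). In vehicle they ended at 8.9 ± 5.19 and 8.59 ± 3.81 FPKM, below the exposed means. The cell cycle inhibitor cdkn1a went from 30.8 ± 1.43 to 43.6 ± 5.01 FPKM, against 4.39 ± 1.03 to 7.6 ± 1.2 FPKM in vehicle. The pro-apoptotic gene bbc3 (Puma) went from 7.74 ± 0.65 to 13.9 ± 2.11 FPKM, against 1.005 ± 0.455 to 2.16 ± 0.603 FPKM, and the p53 ligase mdm2 from 7.95 ± 0.74 to 14.5 ± 3.45 FPKM, against 3.57 ± 0.493 to 4.72 ± 0.406 FPKM. For these 5 genes the difference between the changes did not pass limma's adjusted test, with unadjusted 95% intervals of -1.92 to -0.03 for sesn3, -1.62 to 0.17 for phlda3, -0.58 to 0.18 for cdkn1a, -0.37 to 0.57 for bbc3 and 0.06 to 0.82 for mdm2. The p53 regulator mdm4 fell from 90.1 ± 5.92 to 67.4 ± 5.52 FPKM, and in vehicle to 18.9 ± 2.06 FPKM. The genes cdkn1a, bbc3 and mdm2 were named after their values were seen.

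Immediate-early genes rose in 6 of 14 tested (42.9%) and fell in 3 (21.4%), or in 1 without replicate 1 or 2 of 3.5 hpf or replicate 2 or 4 of 4.5 hpf. The largest rise was ier2b, from 6.02 ± 2.16 to 16.8 ± 4.01 FPKM, followed by jun, from 9.56, 10.2, 10.3 and 9.8 FPKM to 16.6, 16.4, 20.03 and 18.4 FPKM, where vehicle went from 2.41 ± 0.446 to 11.8 ± 1.71 FPKM. Of 46 tested cell cycle genes 10 rose (21.7%) and 5 fell (10.9%). The inhibitor cdkn1ca rose from 3.97 ± 1.29 to 11.6 ± 2.08 FPKM, and the maternal cyclin gene ccnb2 fell from 1115 ± 26.5 to 943 ± 48 FPKM against 1034 ± 30.3 to 516 ± 48.1 FPKM in vehicle. Genes of the heat shock and unfolded protein responses gave 4 rises (12.9%) and 5 falls (16.1%) of 31 tested, against 6.15% and 8.6% of all genes. The falls numbered 3 without replicate 1 or 2 of 3.5 hpf and 2 without replicate 3 or 4 of 4.5 hpf. The small heat shock gene hspb1 rose from 19.5, 22.3, 28.8 and 25.4 FPKM to 61.7, 64.2, 87.3 and 88 FPKM (1.604 ± 0.14, limma adjusted p = 0.000474), against 46.1 ± 4.25 to 391 ± 50.6 FPKM in vehicle.

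Genes of the translation and splicing machinery gave the counts that follow in each treatment, which were not tested against each other. Over all genes 6.15% rose under TBBPA and 35.8% in vehicle. Of 78 tested cytosolic ribosomal protein genes 19 rose (24.4%) and 0 fell (0 by limma voom, 1 at an unadjusted p under 0.05), with a median change of 0.13 under TBBPA, while 74 of 78 rose in vehicle with a median of 0.603. The count under TBBPA was 10 without replicate 2 of 3.5 hpf and 12 without replicate 1, 3 or 4 of 4.5 hpf. The largest of these rises with no overlap was rpl35, from 53.8 ± 1.97 to 65.3 ± 4.25 FPKM. Splicing factor genes rose in 4 of 49 (8.16%) under TBBPA, in 2 without replicate 1 or 2 of 3.5 hpf, and in 46 of 49 in vehicle. Translation initiation factor genes rose in 7 of 58 (12.1%), but in 1 without replicate 2 of 3.5 hpf or replicate 4 of 4.5 hpf and in 2 without replicate 3 of 4.5 hpf, and in 43 of 58 in vehicle. Proteasome genes rose in 3 of 40 (7.5%) and nuclear genes of oxidative phosphorylation in 7 of 88 (7.95%), shares near that of all genes. The latter count was 4 without replicate 1 or 2 of 3.5 hpf or replicate 3 of 4.5 hpf. Over the scalings tried the lowest vehicle counts of rises were 71 for the ribosomal, 41 for the splicing and 25 for the proteasome list.

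Histone acetyltransferases add acetyl groups to histones and deacetylases remove them. Of 17 tested histone acetyltransferase genes 3 fell (17.6%, against 8.6% of all genes), namely clockb, kat6b and crebbpa, and 0 rose (0 also by limma voom and at an unadjusted p under 0.05). The falls numbered 1 without replicate 2, 3 or 4 of 3.5 hpf or replicate 1, 3 or 4 of 4.5 hpf. In vehicle 6 of 17 fell and 5 rose, where 34.3% of all genes fell and 35.8% rose. Other scalings gave 8 to 10 falls and 3 to 5 rises in vehicle. The circadian acetyltransferase clockb went from 20.05, 19.97, 18.1 and 20.2 FPKM to 16, 15.7, 12.8 and 13.8 FPKM (-0.41 ± 0.071, limma adjusted p = 0.00463), with no overlap, and in vehicle from 15.5 ± 0.728 to 6.14 ± 0.611 FPKM. Of 16 tested histone deacetylase genes 1 fell, 1 of the entries of hdac8, and 0 rose (1 by limma voom, 1 at an unadjusted p under 0.05 and 1 without replicate 2 of 4.5 hpf). The hdac8 call was lost without replicate 1, 2 or 4 of 3.5 hpf or replicate 3 or 4 of 4.5 hpf. In vehicle 6 of 16 deacetylase genes fell and 3 rose, and other scalings gave 6 to 9 falls and 1 to 3 rises. Of 46 tested RNA polymerase II machinery genes 4 fell (8.7%, near the 8.6% of all genes). None rose (0 by limma voom, 7 at an unadjusted p under 0.05, 1 without replicate 4 of 3.5 hpf). In vehicle 27 rose, where 35.8% of all genes did, or 18 with the scaling that gave fewest. The falls under TBBPA numbered 1 without replicate 2 of 3.5 hpf and 2 without replicate 1 of 3.5 hpf or replicate 2 or 4 of 4.5 hpf. Of 12 tested maternal activators and acetyl-lysine readers 4 rose (33.3%), or 2 without replicate 1 of 3.5 hpf, and 2 fell (16.7%). The bromodomain gene brd2a rose from 41.9 ± 3.08 to 54.3 ± 2.71 FPKM against 61.8 ± 0.895 to 152 ± 3.51 FPKM in vehicle. The pluripotency factor nanog rose from 907 ± 17.4 to 971 ± 20.5 FPKM, a call lost without replicate 1 of 3.5 hpf and with no filter (highest limma adjusted p = 0.0593). The T-box factor eomesa fell from 235 ± 5.87 to 200.03 ± 15.7 FPKM. Histone genes rose in 3 of 35 tested (8.57%, against 6.15% of all genes), and the maternal variant h2af1al fell from 2419 ± 139 to 1719 ± 164 FPKM.

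Germ plasm is the maternally supplied material that sets aside germ cells. Of 21 tested germ plasm and germ cell genes 9 fell (42.9%) and 0 rose (0 by limma voom, 1 at an unadjusted p under 0.05). The count of falls was 5 without replicate 2 of 3.5 hpf. The regulator of G protein signaling rgs14a went from 30.9, 30.4, 29.96 and 30.01 FPKM to 25.9, 25.1, 24.2 and 20.1 FPKM (-0.34 ± 0.068, limma adjusted p = 0.0085), with no overlap, and in vehicle from 27.9 ± 1.47 to 12.3 ± 1.87 FPKM. The germ granule gene tdrd6 went from 22.2 ± 1.31 to 17.5 ± 2.32 FPKM and in vehicle from 16.5 ± 0.721 to 4.03 ± 0.618 FPKM. Its call under TBBPA was lost without replicate 1, 2 or 4 of 3.5 hpf, without replicate 1 of 4.5 hpf and with no filter (highest limma adjusted p = 0.0748). The germ cell helicase ddx4, the most abundant of the list, was at 117 ± 1.48 and 118 ± 6.26 FPKM (limma adjusted p = 0.866). Of 37 tested oocyte-deposited regulator genes 13 fell (35.1%) and 4 rose (10.8%), with 8 falls without replicate 1 or 2 of 3.5 hpf or replicate 3 of 4.5 hpf. Among those that rose were fbxo5, an inhibitor of the anaphase-promoting complex (16 ± 1.53 to 20.2 ± 1.3 FPKM), and the RNA helicase ddx61 (32.7 ± 1.23 to 39.4 ± 1.85 FPKM). Of 47 tested mRNA decay and clearance factors 5 rose (10.6%) and 7 fell (14.9%), against 6.15% and 8.6% of all genes. Leaving out 1 library took the rises to as few as 2 (without replicate 3 of 3.5 hpf or replicate 2 or 3 of 4.5 hpf) and the falls to as few as 3 (without replicate 2 of 3.5 hpf or replicate 4 of 4.5 hpf). The Argonaute gene ago3a fell from 61.3 ± 2.7 to 43.8 ± 3.18 FPKM. Of 17 tested glycolysis genes 4 fell (23.5%) and 1 rose (5.88%). The gene tpi1a led the falls (-0.52). The rise was eno3 (0.18), a call lost without any of 7 of the 8 single libraries. Of 22 tested antioxidant and xenobiotic genes 4 fell (18.2%), among them sod1 (-0.32) and gstp1 (-0.29). None rose (0 by limma voom, 1 at an unadjusted p under 0.05). Thyroid, PPAR and estrogen receptor genes gave 2 falls of 17 tested (11.8%, against 8.6% of all genes), thraa (-0.35) and pparg (-0.27), and 0 rises (0 also by limma voom and at an unadjusted p under 0.05, 1 without replicate 4 of 3.5 hpf). The falls numbered 1 by limma voom and without replicate 1, 2 or 4 of 3.5 hpf or replicate 2, 3 or 4 of 4.5 hpf, the pparg call being lost in each of these. Mitochondrial ribosomal protein genes gave 3 falls (4.62%) and 4 rises (6.15%) of 65 tested, shares below and near those of all genes (8.6% and 6.15%), and the rises were 0 by limma voom and without replicate 1 or 2 of 3.5 hpf.

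A few genes went against the vehicle direction. Of the 11647 genes tested in both, 7 rose under TBBPA and fell in vehicle, and 17 fell under TBBPA and rose in vehicle. These 24 were picked out by these calls and named after their values were seen. The difference of the changes passed for all 24, which follows largely from picking opposite calls in the same libraries and adds no support. Calls at an adjusted p under 0.05 include some false ones, so some of the 24 may be false calls. Both calls held under every alternative for 6 of the 24, and the other 18 lost 1 or both of the calls under at least 1 alternative. For 3 of the 17, stk17al, PRRC2B and CABZ01065131.1, the vehicle change turned negative with TPM. Among the rises the difference was widest for sesn1, a sestrin that p53 activates in vertebrates, which went from 8.69, 9.8, 10.1 and 10.4 FPKM to 15, 15.9, 17 and 17.5 FPKM under TBBPA (0.69 ± 0.067, limma adjusted p = 0.000556). In vehicle sesn1 fell from 5.31 ± 0.147 to 3.55 ± 0.349 FPKM, and the changes differed by 1.16 ± 0.10 (limma adjusted p = 9.79e-08). The Hippo scaffold gene sav1 rose from 23.1 ± 0.734 to 27.3 ± 0.958 FPKM and fell in vehicle from 21.5 ± 0.872 to 17.1 ± 1.2 FPKM. The gene zgc:152977 rose from 18.9 ± 0.96 to 22.9 ± 1.35 FPKM and dbf4b, an activator of the replication kinase Cdc7, from 27.6 ± 0.843 to 30.8 ± 0.389 FPKM, against vehicle falls to 13.1 ± 0.714 and 21.2 ± 0.987 FPKM.

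In the other direction, the condensin gene ncapd2 went from 125, 123, 115 and 123 FPKM to 114, 108, 101 and 102 FPKM under TBBPA and rose in vehicle from 113 ± 3.31 to 153 ± 9.04 FPKM. The amino acid transporter slc38a2 went from 3.74, 3.6, 3.74 and 3.72 FPKM to 2.94, 2.85, 2.52 and 2.73 FPKM and rose in vehicle from 3.2 ± 0.0937 to 7.09 ± 1.28 FPKM, a difference of -1.25 ± 0.12 (limma adjusted p = 5.03e-07). In both the exposed groups did not overlap.

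Of the 6 genes that rose in both treatments and rose more under TBBPA, the difference was widest for foxi1, a forkhead regulator of non-neural ectoderm. The foxi1 level went from 17.2, 14.6, 18.7 and 17 FPKM to 34.8, 37.6, 43.5 and 42.1 FPKM under TBBPA (1.18 ± 0.084, limma adjusted p = 0.000474) and from 13.9 ± 1.91 to 18.2 ± 2.26 FPKM in vehicle, a difference of 0.81 ± 0.15 (limma adjusted p = 0.000181). The other 5 were nfe2, prdm8, cyp26a1, AL935065.1 and FO834825.1, and the 1 gene that fell more was rbbp5. Exposed means stayed below vehicle at both times for 3 genes. These were nfe2 (1.64 to 3.48 against 4.34 to 5.27 FPKM), AL935065.1 (0.927 to 2.93 against 3.75 to 4.96 FPKM) and FO834825.1 (32.9 to 49.5 against 54.2 to 61.2 FPKM). The exposed mean of prdm8 was above vehicle at both times, and cyp26a1 ended at 47.6 against 46.7 FPKM. The test of the difference was lost for prdm8 under 11 alternatives and for cyp26a1 under 4.

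**Figure D5:**
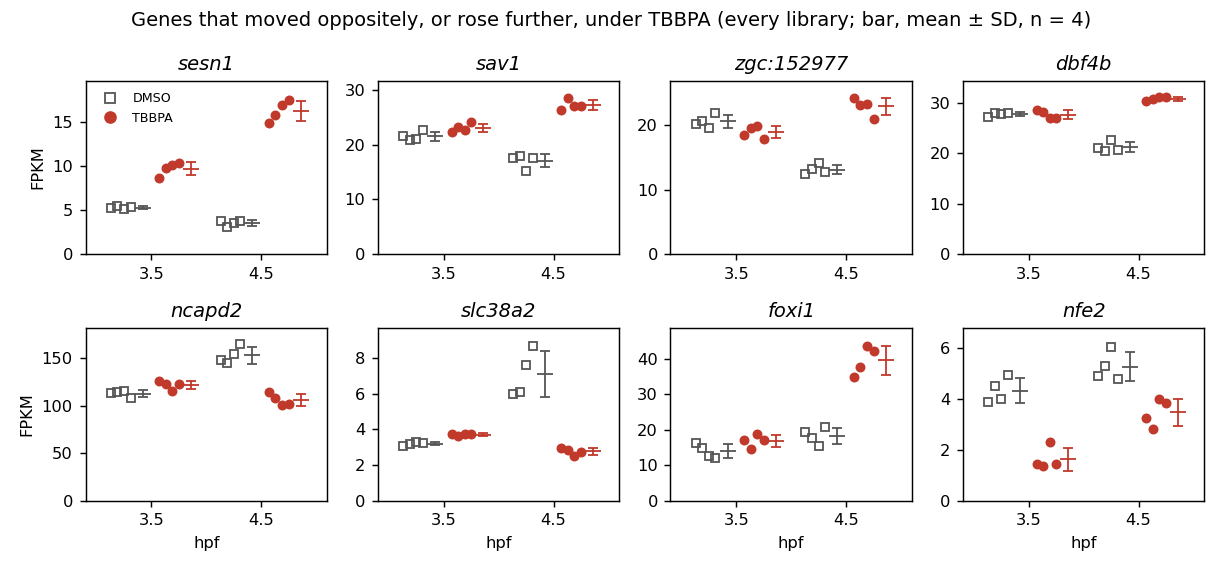
FPKM in every library at 3.5 and 4.5 hpf for 6 genes that moved in opposite directions in the 2 treatments and for foxi1 and nfe2, which rose more under TBBPA (squares, DMSO; circles, TBBPA; bar, mean ± SD, n = 4; axes start at 0). For sesn1 the exposed mean goes from 9.74 to 16.3 FPKM while the vehicle mean goes from 5.31 to 3.55 FPKM. The exposed mean of nfe2 stays below the vehicle mean at both times.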

How the data were processed

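RNA-seq of zebrafish embryos was analysed from the authors' deposited tables, whose values are FPKM per gene and library. Per the submitters' processing notes, HISAT2 2.0.5 made the alignments and featureCounts 1.5.0-p3 the counts per gene. The build of the genome is not given in the sources used here, and the labels name both directional and non-directional library kits, so the strand setting is unknown and overlapping or antisense genes are uncertain. FPKM times gene length gave whole reads for all values within 0.001 once each library's step was known, and these recovered reads served for depth and for limma voom. The libraries of 2 hpf are in a second table with its own scaling, so no test joins it to the later times. No value column was left without a sample.

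A gene entered a fit where 4 or more of its libraries reached 1 FPKM, and was tested with limma 3.58.1 (R 4.3.3, trended empirical Bayes) on log2(FPKM+1), with Benjamini-Hochberg adjustment over all genes tested and a threshold of 0.05. Separate fits used the 8 TBBPA libraries, the 8 vehicle libraries, and all 16 with the interaction of treatment and time. The code was tested on simulated data. Shares of summed FPKM were compared by an exact permutation test over libraries, adjusted over 8 measures. Intervals and tests of FPKM cover the spread between libraries only.

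Genes named are the 15 largest rises and falls and the 10 largest differences in each direction (protein-coding, at least 5 FPKM in 1 group, no overlap between libraries, no clone name or histone gene), for each of 32 lists the 2 largest rises and falls and the most abundant member, and for each vehicle class the 3 largest and 3 smallest changes. Some genes that the rule names are not reported here. Genes outside the rule are marked as chosen after their values were seen. The members and lists were chosen with earlier results of these data known. Of 709 listed symbols 21 matched no gene, and some genes stand on several lists. A search of promoters for motifs was not run, since no promoter sequences were used here. Alternatives were other scalings, filters, pseudocounts, fits, class limits, and leaving out each library.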

Additional observations from a re-analysis of the deposited data

Results flagged for a closer look

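Groups of 4 libraries were looked at for a library far from the other 3, in 166 groups (the library measures and 75 genes at each time under TBBPA), and 6 showed one, where chance gives about 1 in 20. At 3.5 hpf, replicate 2 had the fewest recovered reads, 13.473 M. Replicate 3 of 3.5 hpf was lowest for ptpn23b at 17.3 FPKM, with the others at 19.67 to 20.12 FPKM. Replicate 1 of 3.5 hpf was lowest for atp1b1a at 1.06 FPKM, with the others at 2.01 to 2.042 FPKM. Replicate 2 of 3.5 hpf was highest for PRRC2B at 88.1 FPKM, with the others at 80.23 to 81.26 FPKM. Replicate 3 of 3.5 hpf was highest for nfe2 at 2.31 FPKM, with the others at 1.356 to 1.452 FPKM. Replicate 3 of 4.5 hpf was lowest for si:ch211-214c7.4 at 20.93 FPKM, with the others at 22.66 to 22.68 FPKM.

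For 24 genes the change passed in opposite directions in the 2 treatments. The difference is the change under TBBPA minus the change in vehicle (log2). Limma's test of it passed for each, which follows largely from picking opposite calls in the same libraries. Among the 7 that rose under TBBPA, the difference was 1.16 for sesn1, 0.87 for zgc:152977, 0.55 for sav1, 0.54 for zfp36l2, 0.52 for dbf4b, 0.43 for tob1b and 0.42 for plk3. Among the 17 that fell, it was widest for lft1 at -2.36, followed by si:ch211-113a14.22 at -1.45 and slc38a2 at -1.25. It was -0.66 for si:ch1073-391i24.1, -0.65 for si:ch211-214c7.4, -0.63 for ncapd2, -0.59 for phf10, -0.57 for dtwd2 and -0.51 for CABZ01090785.1. It was -0.46 for nfe2l3, -0.43 for elovl7b, -0.40 for map2k4b, -0.39 for ubap2a, -0.38 for stk17al, -0.33 for PRRC2B, -0.26 for prmt1 and -0.17 for CABZ01065131.1. The vehicle rises of stk17al, PRRC2B and CABZ01065131.1 turned negative with TPM, so the opposite directions of these 3 genes depend on scaling. Of the 24, 15 lost the call under TBBPA and 8 lost the vehicle call or its direction under at least 1 alternative.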

How the results depend on the processing

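No gene called under TBBPA both as reported and under an alternative fit changed direction. The balance of counts did change with scaling. In vehicle 4427 genes rose and 4235 fell as deposited, and 3068 rose and 5439 fell with TPM. Differences were 3356 higher and 3397 lower as deposited, and 4659 and 2013 with TPM. With TPM the small vehicle rise of CABZ01065131.1 (0.08) became a fall (-0.09, limma adjusted p = 0.0109), those of stk17al and PRRC2B turned to -0.0089 and -0.04 without passing, and 1 difference passed with the opposite sign. With total-count scaling PRRC2B and CABZ01065131.1 were at -0.01 and -0.06 in vehicle, also without passing. Requiring a 2-fold change left 143 genes under TBBPA, 140 higher and 3 lower. TPM scaling took the genes with a lower change under TBBPA than in vehicle to 2013. Zygotic risers that rose numbered 333 with all 16 libraries in the fit and 325 with the filter over 16 libraries, a choice made after the data were seen, since the classes' low members then enter the test. With classes cut at a 1.5-fold vehicle change, 182 boosted genes rose and 748 cleared genes fell, the classes being larger by construction. Leaving out 1 library gave 1107 to 1699 called genes under TBBPA (474 to 678 higher, 587 to 1021 lower), 7841 to 8222 in vehicle (3811 to 4280 higher, 3896 to 4162 lower) and 6107 to 6651 differences (3155 to 3349 higher, 2952 to 3360 lower). It gave 146 to 214 risers, 86 to 107 boosted genes and 292 to 397 cleared genes in the vehicle direction, and changes in share of 0.456 to 0.535, 0.431 to 0.501, -1.52 to -1.27 and -0.11 to -0.047 percentage points for risers, boosted, cleared and stable genes. The filter stays at 4 libraries when 1 is left out, so genes expressed only at 4.5 hpf then drop from the test. For the other alternatives the count under TBBPA was 1455 (no filter) to 1983 (all 16 libraries). With no filter 749 rose and 706 fell, so 51.5% of calls were higher against 41.7% as reported. Of 234 results for named genes 46 lost or gained a call under at least 1 alternative.

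With the replicate number as a block (replicate block), 1967 genes were called under TBBPA (846 higher, 1121 lower), 8567 in vehicle and 6863 for the difference. Whether equal numbers pair the samples is not settled by the values. Deviations of same-numbered TBBPA libraries correlated at 0.128, 0.0078, 0.08 and 0.165, and vehicle ones at 0.0844, -0.0193, 0.0041 and 0.0313. Unlike-numbered TBBPA libraries correlated at -0.145 to 0.0779. Under TBBPA replicates 1, 3 and 4 of 3.5 hpf correlated best with their own number, and replicate 2 did not. For replicate 3 the margin was narrow (0.08 against 0.0779 with replicate 4). Unlike-numbered vehicle libraries correlated at -0.111 to 0.0928, and in vehicle no replicate of 3.5 hpf correlated best with its own number.

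At 10.6 to 20.02 M reads per library, the expression filter kept low genes out, among them 354 of the 646 zygotic risers under TBBPA.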

Other observations

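A small group of genes changed under TBBPA without passing the vehicle test, and the difference between the treatments passed for them. It held 18 genes that rose, 3 of which were below the filter in vehicle, and 17 that fell. A further 26 rises and 30 falls without a vehicle call, and 4 and 3 below the vehicle filter, did not pass the difference. Of genes tested in both without a vehicle call, 41 rose (1.15%) and 47 fell (1.32%) under TBBPA, against 6.15% and 8.6% of all genes. The 18 and 17 were picked out by these calls, so passing the difference adds no support. Those named were chosen after their values were seen. The largest was the clone-named si:dkey-145p14.5, which went from 2.3, 2.52, 3.14 and 3.24 FPKM to 4.66, 6.14, 6.52 and 8.37 FPKM with no overlap, against 1.3 ± 0.147 and 1.24 ± 0.296 FPKM in vehicle (log2 difference of changes 0.997, limma adjusted p = 0.000328). The scaffold gene grasp, whose mammalian product binds membrane receptors, went from 10.6, 9.8, 10.1 and 10.7 FPKM to 15.4, 19.2, 22.7 and 24.6 FPKM, against 8.49 ± 0.502 and 9.66 ± 0.835 FPKM in vehicle (0.74, limma adjusted p = 0.000467). The vehicle rise of grasp, 0.17, narrowly missed the threshold (limma adjusted p = 0.0586, unadjusted p = 0.0418). The ubiquitin ligase gene rnf169, whose mammalian product acts at DNA breaks, went from 6.02 ± 0.606 to 10.3 ± 1.38 FPKM, against 4.25 ± 0.398 and 4.62 ± 0.587 FPKM in vehicle. The kinase gene mknk2b went from 30.8 ± 1.6 to 40.2 ± 3.39 FPKM against 27.1 ± 1.47 and 28 ± 1.71 FPKM.

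Among the falls, the E-cadherin gene cdh1 went from 117, 117, 116 and 112 FPKM to 106, 105, 101 and 101 FPKM under TBBPA, against 109.7 ± 1.94 and 110.1 ± 2.46 FPKM in vehicle (log2 difference of changes -0.17, limma adjusted p = 0.00127). The single-stranded DNA binding gene rpa1 went from 51.7 ± 2.47 to 44.1 ± 0.808 FPKM, against 52.3 ± 0.999 and 50.5 ± 1.42 FPKM. Scaling moves the vehicle side of these comparisons: the median vehicle change of all genes was 0.02 as deposited and -0.13 with TPM. The median difference of changes was -0.0024 as deposited, 0.15 with TPM and 0.11 with scaling to total reads. Shifts of that size are near the differences of cdh1 and rpa1 (each -0.17), so these differences may depend on scaling.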
